A study of Arabidopsis thaliana with 12 samples.

Results

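The transcripts of 10 JAZ repressor genes of Arabidopsis thaliana, JAZ1, JAZ2, JAZ3, JAZ5, JAZ6, JAZ7, JAZ8, JAZ9, JAZ10 and JAZ12, were followed by RNA sequencing in fully expanded rosette leaves after strong light. They were chosen by name from the 28642 genes listed in each table, not by their values. The leaves came from 4 genotypes with 3 libraries each: the triple mutant sapx tapx pgr5, the double mutant sapx tapx, the single mutant pgr5, and wild type. All plants had grown for 18 days in low light (40 to 60 µmol photons m-2 s-1) before 90 min of strong light (1500 µmol photons m-2 s-1). SAPX and TAPX encode ascorbate peroxidases of the chloroplast stroma and thylakoid, and PGR5 is a thylakoid protein that part of cyclic electron flow depends on. The labels name no alleles, do not say whether replicates came from separate plants, and describe no transgene or driver. No library of leaves kept in low light was analysed here, so the values compare genotypes after the exposure and do not measure a response to light.

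JAZ proteins carry the TIFY motif and repress jasmonate signalling. When the active hormone, jasmonoyl-isoleucine, accumulates, the F-box protein COI1 binds JAZ proteins and marks them for degradation, which frees MYC transcription factors such as MYC2. The JAZ genes are themselves among the genes that MYC factors switch on, so their transcripts are widely used as an early readout of jasmonate signalling, for example after wounding or touch of a leaf.

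G-box sequences, which MYC factors are known to bind, were looked for in a window from 250 bases before to 50 bases after the start of every member but JAZ1, with starts as in the deposited tables on the TAIR10 build and letters from the RefSeq genome. CACGTG, which reads the same on both strands, lay in the windows of 5 of these 9 JAZ genes (JAZ2, JAZ3, JAZ7, JAZ8 and JAZ9) and in those of 8.02% of 28495 nuclear genes. The near variant CACGTT, read on either strand and sharing no complete copy with CACGTG, lay in the windows of 3 of the 9 (JAZ3, JAZ6 and JAZ12) and of 9.01% of the nuclear genes. A match of letters describes the window and does not show binding, and windows with no match (JAZ5 and JAZ10) say nothing about the factors there. The windows of the member with the widest range (JAZ7), a wide-ranging member with neither motif (JAZ10) and the member with the narrowest range (JAZ12) are shown from 5′ to 3′ on the coding strand, with either motif in capitals.
JAZ7 (chr2:14572830-14573129, plus strand): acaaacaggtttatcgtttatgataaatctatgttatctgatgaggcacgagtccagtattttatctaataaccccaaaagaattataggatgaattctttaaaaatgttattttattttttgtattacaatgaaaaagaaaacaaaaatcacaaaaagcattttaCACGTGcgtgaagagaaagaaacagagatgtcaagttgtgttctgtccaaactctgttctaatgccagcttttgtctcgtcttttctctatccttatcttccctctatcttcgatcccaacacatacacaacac
JAZ10 (chr5:4218638-4218937, plus strand): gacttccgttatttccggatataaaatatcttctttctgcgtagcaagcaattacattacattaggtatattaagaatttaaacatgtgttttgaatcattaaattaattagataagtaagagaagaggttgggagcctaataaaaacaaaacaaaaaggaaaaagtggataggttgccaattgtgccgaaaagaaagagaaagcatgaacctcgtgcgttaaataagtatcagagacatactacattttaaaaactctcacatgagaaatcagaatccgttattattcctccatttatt
JAZ12 (chr5:7090454-7090753, plus strand): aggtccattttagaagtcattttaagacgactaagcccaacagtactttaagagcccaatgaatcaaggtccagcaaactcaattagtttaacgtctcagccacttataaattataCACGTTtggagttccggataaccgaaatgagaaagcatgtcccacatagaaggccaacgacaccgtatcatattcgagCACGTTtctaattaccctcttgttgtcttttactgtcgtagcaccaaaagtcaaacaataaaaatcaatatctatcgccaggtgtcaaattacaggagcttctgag
In JAZ7 CACGTG began 84 bases before the start, and in JAZ12 the variant began 134 and 56 bases before it.

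The libraries held 4916603 to 6828070 exon reads. SAPX had 100 to 186 reads in triple mutant and 109 to 123 in sapx tapx libraries, against 1460 to 1598 in pgr5 and 1229 to 1376 in wild type libraries. PGR5 RNA gave no such check of the pgr5 label. The mesophyll genes of the marker list summed to 52511 TPM or more in every library, and 3 of 5 root markers had no read in any library. TPM, the deposited level per transcript length and per library, is used for levels between genes, and read counts are used for tests. In leaf samples, fewer cells that express a gene and less RNA per cell cannot be told apart.

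Of the 10 genes, JAZ9 and JAZ6 made up most of the JAZ transcripts in every library, and JAZ10 and JAZ8 were scarce. The highest TPM among replicates was at least 2 times the lowest for 8 of the 10 JAZ genes in the triple mutant, 8 in sapx tapx, 4 in pgr5 (JAZ1, JAZ7, JAZ8 and JAZ10) and 9 in wild type, with JAZ12 outside this count in every genotype. Wild type replicate 2 had the highest wild type level of all 10 genes, sapx tapx replicate 2 the lowest sapx tapx level of all 10, and triple mutant replicate 2 the lowest triple mutant level of all 10. The pgr5 libraries had no such replicate and were low. The mean TPM of pgr5 was the lowest of the 4 genotypes for all 10 genes, while the highest mean belonged to sapx tapx for 6 genes, to wild type for 3 and to the triple mutant for 1.

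**Figure D1:**
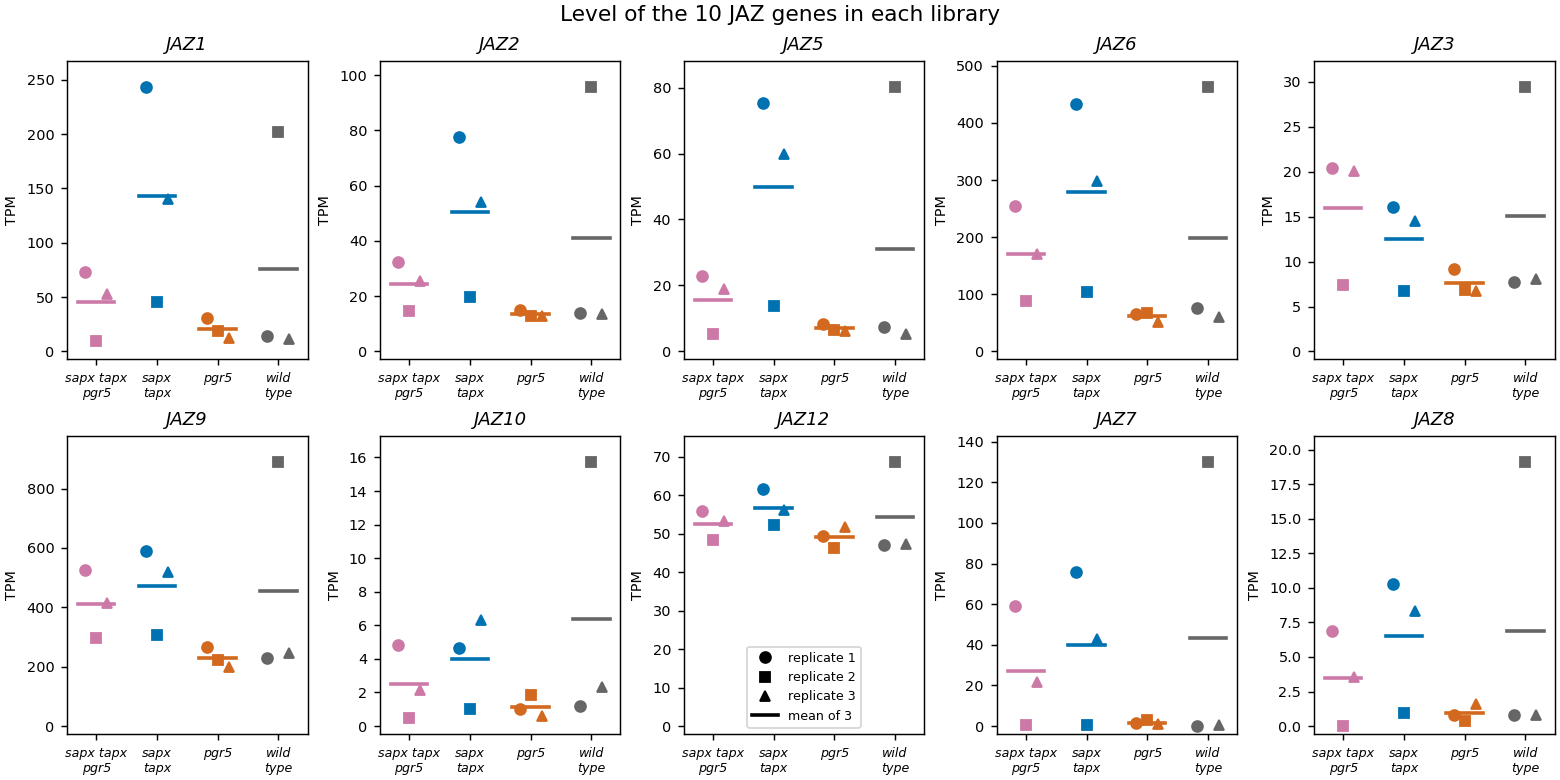
Level of each JAZ gene in TPM (vertical axis, linear, a separate scale for each gene) in the 12 libraries, by genotype; symbols mark replicates 1 to 3 and lines the mean of 3 libraries. The pgr5 libraries lie low for every gene but JAZ12, and 1 wild type library, replicate 2, stands far above the other wild type libraries for every gene but JAZ12, where it is 68.7 TPM.

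JAZ1 (AT1G19180, chr1:6622094-6623620, plus strand), JAZ2 (AT1G74950, chr1:28148575-28150444, minus strand), JAZ5 (AT1G17380, chr1:5955488-5957212, minus strand) and JAZ6 (AT1G72450, chr1:27274065-27276317, minus strand) form 1 branch of the family. JAZ1, a repressor that binds MYC2 and COI1, had 73.5, 9.80 and 52.7 TPM in the triple mutant libraries 1 to 3, 243, 45.1 and 140.4 TPM in sapx tapx, 30.7, 18.7 and 12.3 TPM in pgr5, and 14.5, 202 and 11.4 TPM in wild type. All 3 sapx tapx libraries lay above all 3 pgr5 libraries, but wild type spanned nearly the whole range. The table gives JAZ1 an exon length equal to its whole gene length of 1527 bases, so reads from any intron of JAZ1 count as exon reads and its TPM is spread over that length.

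JAZ6 was the second most abundant member, with 255, 88.6 and 170.1 TPM in the triple mutant, 434, 105 and 299 TPM in sapx tapx, 66.3, 67.1 and 51.0 TPM in pgr5, and 76.6, 462 and 59.6 TPM in wild type. JAZ5 had 23.0, 5.21 and 18.8 TPM in the triple mutant, 75.4, 13.8 and 59.9 TPM in sapx tapx, 8.35, 6.51 and 6.34 TPM in pgr5, and 7.45, 80.0 and 5.34 TPM in wild type. JAZ2 averaged 24.3 ± 8.94 TPM in the triple mutant, 50.4 ± 29.1 TPM in sapx tapx, 13.6 ± 1.3 TPM in pgr5 and 41.1 ± 47.1 TPM in wild type (SD, n = 3 each). For all 4 genes of the branch the lowest sapx tapx library exceeded the highest pgr5 library, and wild type replicates 1 and 3 lay in or near the pgr5 range.

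JAZ3 (AT3G17860, chr3:6119767-6123019, plus strand) and JAZ9 (AT1G70700, chr1:26654768-26657064, plus strand) belong to another branch. JAZ9, the most abundant member, had 524, 297 and 415 TPM in the triple mutant, 590.2, 307 and 519 TPM in sapx tapx, 267, 221 and 198 TPM in pgr5, and 229, 889 and 247 TPM in wild type. JAZ3 averaged 16.0 ± 7.42 TPM in the triple mutant, 12.5 ± 5.0 TPM in sapx tapx, 7.59 ± 1.41 TPM in pgr5 and 15.1 ± 12.4 TPM in wild type (SD, n = 3 each). It was the only member with its highest mean in the triple mutant, by a margin smaller than the SD of either that genotype or wild type.

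JAZ10 (AT5G13220, chr5:4218888-4220883, plus strand), known for splice variants whose proteins resist degradation, had 33, 4 and 17 exon reads in the triple mutant, 35, 6 and 48 in sapx tapx, 7, 14 and 4 in pgr5, and 8, 100 and 16 in wild type. These few reads leave its fold changes imprecise. JAZ12 (AT5G20900, chr5:7090704-7092539, plus strand) was the steadiest member, with 56.0, 48.4 and 53.3 TPM in the triple mutant, 61.6, 52.2 and 56.2 TPM in sapx tapx, 49.5, 46.4 and 51.7 TPM in pgr5, and 47.1, 68.7 and 47.4 TPM in wild type. The gene body of JAZ12 shares 28 bases with AT5G20910 on the opposite strand, and the kit does not mark strand, so reads there could come from either gene.

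JAZ7 (AT2G34600, chr2:14573080-14573856, plus strand) and JAZ8 (AT1G30135, chr1:10596492-10597239, plus strand) encode short members whose degron departs from the usual one and that can recruit co-repressors through an EAR motif. JAZ7 had 175, 1 and 74 exon reads in the triple mutant, 248, 1 and 142 in sapx tapx, 4, 9 and 3 in pgr5, and 0, 359 and 2 in wild type. It was the nearest to an on or off pattern among replicates of 1 genotype: its highest library was at least 124-fold above its lowest in CPM (counts scaled to library size with TMM), with the lowest set to a floor of 3 reads in that library. JAZ8 had 17, 0 and 10 reads in the triple mutant, 28, 2 and 23 in sapx tapx, 2, 1 and 4 in pgr5, and 2, 44 and 2 in wild type, and ranged at least 16.5-fold on the same floor. A count of 0 allows up to 0.500 CPM in wild type replicate 1 for JAZ7 and up to 0.462 CPM in triple mutant replicate 2 for JAZ8. Over the 12 libraries the ratio of highest to lowest CPM was 28.1 for JAZ10, 24.3 for JAZ1, 15.4 for JAZ5, 9.11 for JAZ6, 7.38 for JAZ2, 4.44 for JAZ9, 4.32 for JAZ3 and 1.45 for JAZ12.

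The spread between replicates was wide beside other genes. The SD of log2 CPM within genotypes had a median of 1.17 over the 10 JAZ genes and 0.215 over all 16350 genes tested. It was 3.10 for JAZ7, 1.53 for JAZ1, 0.633 for JAZ9 and 0.168 for JAZ12, and 33.5% of all genes tested had a smaller value than JAZ12, against 94.9% for JAZ9 and 99.6% for JAZ1. By genotype the median over the JAZ genes was 0.951 in the triple mutant, 1.11 in sapx tapx, 0.254 in pgr5 and 1.69 in wild type, where the medians over all genes were 0.192, 0.198, 0.159 and 0.189 in the same order. The JAZ genes were thus several times as variable as the typical gene in every genotype but pgr5, in which they came nearer to it.

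**Figure D2:**
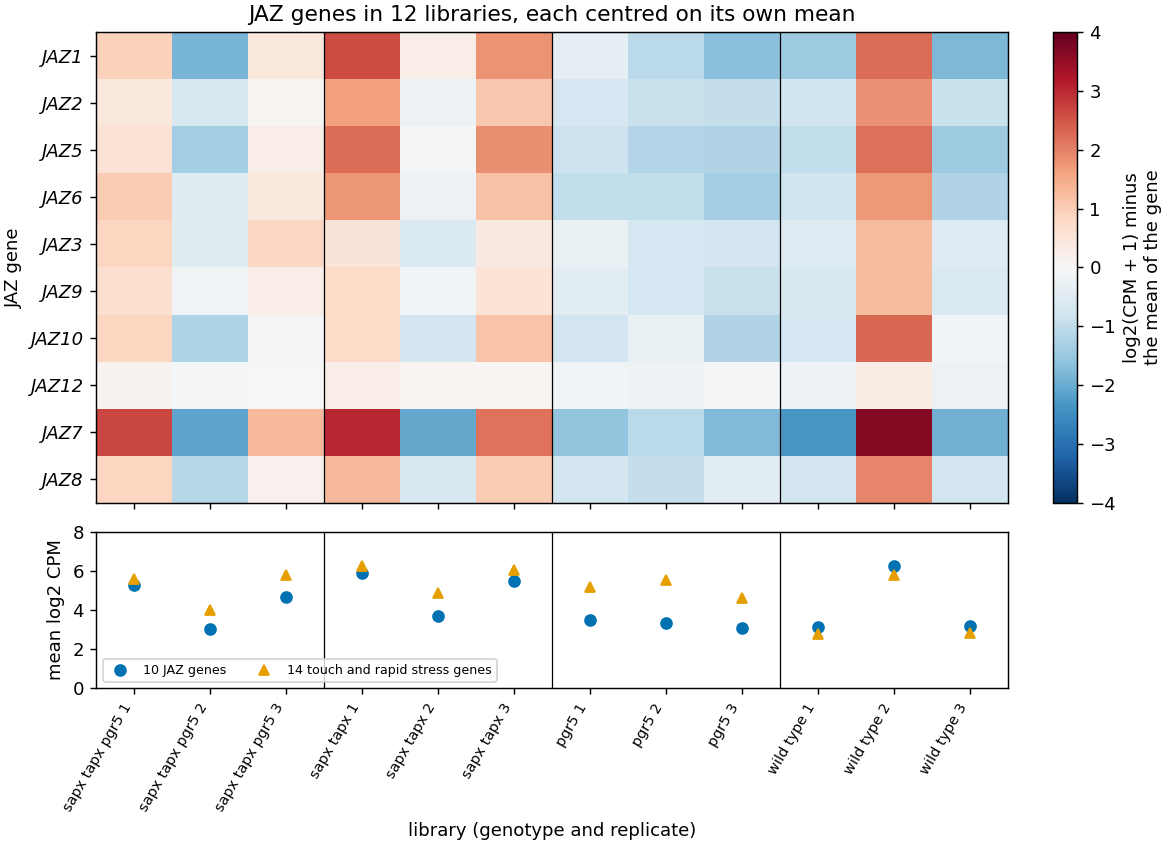
Upper panel: log2(CPM + 1) of each JAZ gene minus its own mean over the 12 libraries (colour, red above and blue below the mean), with genotypes separated by lines. Lower panel: mean log2 CPM of the 10 JAZ genes (circles) and of 14 touch and rapid stress genes (triangles) in the same libraries; in pgr5 the triangles lie at 4.59 to 5.51 and the circles at 3.09 to 3.47.

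The libraries that were high or low for the JAZ genes were partly those that were high or low for 14 touch and rapid stress genes, whose transcripts rise within minutes of handling or strong stress. In wild type the mean log2 CPM of the touch list was 2.78, 5.78 and 2.84 in replicates 1 to 3, and that of the JAZ genes was 3.15, 6.26 and 3.18. In pgr5 the touch list stood at 5.19, 5.51 and 4.59, while the JAZ genes stood at 3.47, 3.35 and 3.09. All 3 pgr5 libraries thus had JAZ means close to those of wild type replicates 1 and 3, beside touch means well above those of these replicates. The triple mutant had touch means of 5.57, 4.02 and 5.78 and JAZ means of 5.25, 3.05 and 4.67. In sapx tapx the touch means were 6.25, 4.86 and 6.03 and the JAZ means 5.86, 3.70 and 5.48. The part of the touch response in the differences between genotypes was not tested.

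The make-up of the pool also differed between libraries. The 10 genes summed to 1056, 472 and 784 TPM in the triple mutant, 1588, 552 and 1201 TPM in sapx tapx, 449.7, 385 and 342 TPM in pgr5, and 399, 1992 and 397 TPM in wild type. JAZ6 and JAZ9 together held 64.5 to 81.7% of the sum. JAZ1 held 2.08 to 6.96% in the triple mutant, 8.17 to 15.3% in sapx tapx, 3.61 to 6.82% in pgr5 and 2.88 to 10.1% in wild type, so all sapx tapx libraries gave JAZ1 a larger share than any triple mutant or pgr5 library. JAZ5 likewise held 1.10 to 2.40% in the triple mutant, 2.50 to 4.99% in sapx tapx, 1.69 to 1.86% in pgr5 and 1.34 to 4.02% in wild type. JAZ12 ran from 3.45 to 15.1%, low where the sum was high, since its own level hardly moved. These shares are descriptions, and with 3 libraries against 3 an exact two-sided permutation test cannot give a p below 0.1.

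**Figure D3:**
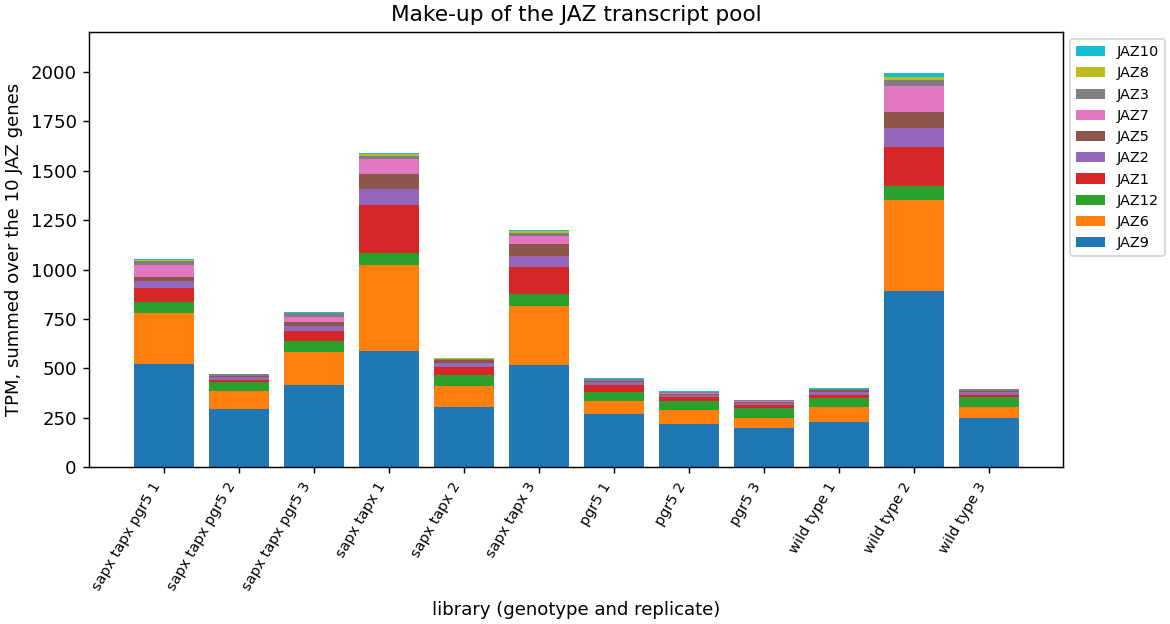
Stacked bars of TPM for the 10 JAZ genes in each library, from 342 TPM in pgr5 replicate 3 to 1992 TPM in wild type replicate 2. JAZ9 and JAZ6 fill most of every bar, and the JAZ1 segment is widest in sapx tapx replicates 1 and 3 and wild type replicate 2.

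Sapx tapx and pgr5 stood furthest apart. Neither is a control of the other, and the comparison sets a loss of chloroplast peroxidases beside a loss of PGR5. All 10 fitted log2 fold changes were above 0, with a median of 2.1 against 0.01 over all genes tested. For 6 of the 10 genes (JAZ1, JAZ2, JAZ5, JAZ6, JAZ9 and JAZ12) every sapx tapx library exceeded every pgr5 library in CPM and in TPM, which held in CPM in the same direction for 14.1% of all genes tested. The fold changes on the log2 scale were 2.86 ± 1.06 for JAZ1, 1.96 ± 0.70 for JAZ2, 2.89 ± 0.96 for JAZ5, 2.25 ± 0.73 for JAZ6, 1.11 ± 0.44 for JAZ9 and 0.28 ± 0.14 for JAZ12 (± standard error). None of the 10 was called by edgeR's quasi-likelihood test at a Benjamini-Hochberg adjusted p under 0.05 with all 12 libraries in the fit, where 6.4% of all genes were called; the smallest adjusted p was 0.0917, for JAZ6, and 6 members had an unadjusted p under 0.05, as did 22.2% of all genes.

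That outcome depended on wild type replicate 2, which is not in the comparison but shares in the estimate of the spread. Fitted on sapx tapx and pgr5 alone, a fit that drops the triple mutant as well as wild type, edgeR called 5 members as higher in sapx tapx, where it called 3.72% of all genes as higher, with adjusted p of 0.0158 for JAZ1, 0.0195 for JAZ2, 0.0130 for JAZ5, 0.0132 for JAZ6 and 0.0156 for JAZ9. The same 5 were called with 11 libraries when wild type replicate 2 was left out (adjusted p 0.0128 to 0.0256, with 3.85% of all genes called as higher), and none without wild type replicate 1 or 3 (smallest adjusted p 0.0812 and 0.0653). Leaving out a compared library gave no call either. The smallest edgeR adjusted p then ran from 0.0751 without sapx tapx replicate 2 to 0.254 without pgr5 replicate 3, and was 0.242 without sapx tapx replicate 1. DESeq2 with all 12 libraries called none, with a smallest adjusted p of 0.0636 for JAZ5, and limma on log2(TPM + 1) called none either.

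Between pgr5 and wild type, which asks what the loss of PGR5 alone does, all 10 fitted log2 fold changes were below 0, with a median of -1.75. None was called by edgeR, against 3.9% of all genes; 3 members (JAZ2, JAZ6 and JAZ10) had an unadjusted p under 0.05, against 19.4% of all genes, and the smallest adjusted p was 0.220 for JAZ10. The pgr5 libraries did not all lie below the wild type libraries for any member, as they did for 12.1% of all genes. The direction rested on wild type replicate 2: without it the median became 0.03, and the fold changes of JAZ1, JAZ5, JAZ7, JAZ8 and JAZ12 turned positive.

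**Figure D4:**
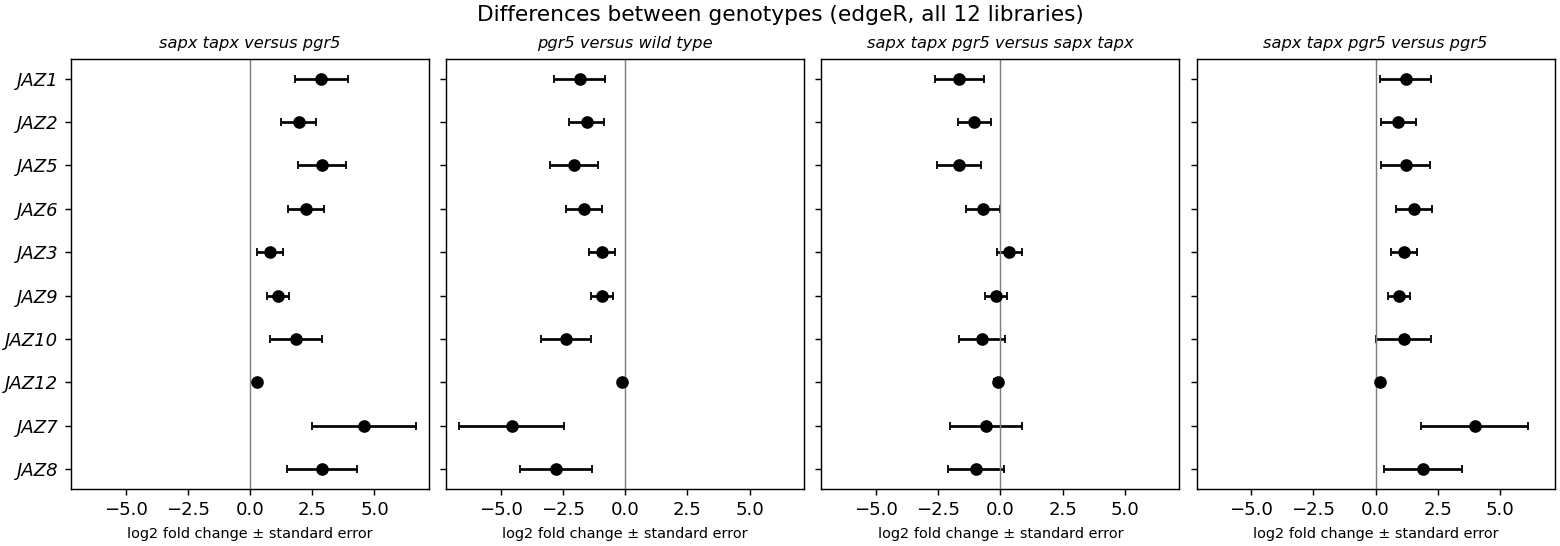
Log2 fold change of each JAZ gene (points) with its standard error (bars) in 4 comparisons, from 1 edgeR fit to all 12 libraries; values above 0 mean higher in the genotype named first. All 10 points lie right of 0 for sapx tapx versus pgr5 and left of 0 for pgr5 versus wild type, with wide bars for JAZ7.

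The triple mutant asks whether loss of PGR5 acts alike on top of sapx tapx. Against sapx tapx, 9 of the 10 fold changes were below 0, with a median of -0.71 and the lowest values for JAZ5 (-1.67 ± 0.88) and JAZ1 (-1.65 ± 1.00); the exception was JAZ3 at 0.35 ± 0.51. The median was -0.32 without triple mutant replicate 2, -0.37 without sapx tapx replicate 1, -1.13 without sapx tapx replicate 2 and -1.46 without triple mutant replicate 1. Against pgr5, all 10 were above 0 with a median of 1.18, which became 0.77 without triple mutant replicate 1. In CPM 4 genes (JAZ2, JAZ6, JAZ9 and JAZ12) were higher in every triple mutant library than in any pgr5 library, as were 10.9% of all genes; in TPM the libraries overlapped for JAZ2 and JAZ12. By edgeR no member was called in either comparison, where 7.91% of all genes were called against sapx tapx and 1.54% against pgr5, and no member had an unadjusted p under 0.05 in either (21.3% and 14.1% of all genes did).

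The replicate numbers changed that outcome for the triple mutant against sapx tapx. Over all genes, same-numbered libraries of these genotypes deviated together (r of 0.37 to 0.61 in the 3 pairs), although the labels do not say what a number stands for. Some unlike-numbered libraries of other genotypes did so too, such as wild type replicate 2 with triple mutant replicate 1 (r of 0.52). The correlations thus do not show that the numbers pair samples. In CPM 8 members, all but JAZ3 and JAZ10, were lower in the triple mutant library of every same-numbered pair, as were 25.5% of all genes. With the replicate number as a block and only these genotypes fitted, a fit added after the values were seen, edgeR called 5 members as lower in the triple mutant, against 9.03% of all genes. Their log2 fold changes were -1.64 for JAZ5 (adjusted p 3.73e-06), -1.70 for JAZ1 (5.61e-06), -0.99 for JAZ2 (0.000519), -0.63 for JAZ6 (0.000959) and -0.59 for JAZ7 (0.0257). The block was chosen from the agreement of these same libraries, so these adjusted p describe the fit and give no separate support. The same genotypes fitted without the block gave 0 calls among the members (smallest adjusted p 0.200), and the block with all 12 libraries also gave 0 (0.352).

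Against wild type, neither sapx tapx nor the triple mutant had a JAZ gene called by edgeR or at an unadjusted p under 0.05. The calls over all genes were 0.0367% for sapx tapx and 10.3% for the triple mutant, and 7.5% and 25.2% had an unadjusted p under 0.05. Of the 10 fold changes 8 were above 0 for sapx tapx (median 0.16) and 2 for the triple mutant (median -0.60). Leaving out wild type replicate 2 gave medians of 2.03 for sapx tapx and 1.23 for the triple mutant, so the sign for the triple mutant was set by that library. Averaged over both backgrounds, pgr5 genotypes minus their partners with PGR5 gave 10 negative fold changes with a median of -1.43. Without wild type replicate 2 the median was -0.41, JAZ3 and JAZ7 turned positive, and the smallest adjusted p was 0.263. None was called by edgeR (14.9% of all genes were), 5 had an unadjusted p under 0.05 (29.8% of all genes did), and the smallest adjusted p was 0.0752, for JAZ5. JAZ5 passed without wild type replicate 1 (adjusted p 0.0494, with 5.41% of all genes called as lower) or replicate 3 (0.0394, with 5.4%). The interaction, which asks whether the pgr5 effect differs between the backgrounds, gave no call among the members, 0.141% among all genes, and no member with an unadjusted p under 0.05, against 7.04% of all genes.

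The order of the genotype means was thus nowhere resolved among neighbours for any member when all 12 libraries were fitted. For JAZ1, JAZ2, JAZ5, JAZ6 and JAZ9 the order from high to low was sapx tapx, wild type, triple mutant and pgr5, and no step of it passed the test in that fit. Some cell type markers moved with the pgr5 genotypes. Of 4 mesophyll genes, LHCB2.1 and RCA were called by edgeR in the average pgr5 effect, 1 as higher and 1 as lower. The log2 fold changes of the 4 ran from -0.24 to 0.27. Of 4 phloem companion cell genes, SUC2 (1.17, adjusted p 1.75e-06) and AHA3 (0.32, adjusted p 0.00411) were called by edgeR as higher in the average pgr5 effect, and the 4 genes summed to 319 to 375 TPM in the triple mutant, 246 to 271 TPM in sapx tapx, 345 to 386 TPM in pgr5 and 246 to 272 TPM in wild type. Of 5 trichome genes, 3 of them tested, GL2 (-3.71, adjusted p 3.74e-05) and TTG2 (-1.60, adjusted p 0.00230) were called as lower in the same comparison. TRY, the other one tested, was not called and had a log2 fold change above 0 (0.26). GL2 had 1, 2 and 0 reads in the triple mutant, 12, 15 and 24 in sapx tapx, 3, 2 and 3 in pgr5, and 25, 23 and 38 in wild type. The 5 trichome genes summed to 9.18 to 15.4 TPM in the triple mutant, 12.6 to 17.5 TPM in sapx tapx, 15.3 to 18.3 TPM in pgr5 and 15.2 to 18.1 TPM in wild type, ranges that overlap. FAMA, 1 of 4 guard cell genes, was also called as lower (-0.38, adjusted p 0.00864). The 4 guard cell genes had a median log2 fold change of -0.09, with 3 below 0 and 1 above. The part of these cell types in the JAZ levels was not tested.

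Some other jasmonate genes passed the test, and the counts from their lists are given beside the share of all genes called. MYC2, the transcription factor that JAZ proteins repress, had 80.3, 71.7 and 89.8 TPM in the triple mutant, 313, 195 and 316 TPM in sapx tapx, 95.3, 55.0 and 69.9 TPM in pgr5, and 68.5, 237 and 82.1 TPM in wild type. Its sapx tapx libraries lay above all triple mutant and pgr5 libraries, and sapx tapx replicate 2, lowest of its genotype for all 10 JAZ genes, still had more MYC2 than any of them. Between the triple mutant and sapx tapx, MYC2 was lower in the triple mutant (log2 fold change -1.76 ± 0.39, edgeR adjusted p 0.0172). It was higher in sapx tapx than in pgr5 (1.97 ± 0.40, edgeR adjusted p 0.0141). The first call was lost without sapx tapx replicate 1 or 3 or triple mutant replicate 1 or 3 (adjusted p 0.0536 to 0.0616), and the second without pgr5 replicate 2 or 3 (0.0738 and 0.0693). The average pgr5 effect on MYC2 was -1.27 ± 0.27 (adjusted p 0.00934) and held without any 1 library.

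Of the 11 genes of jasmonate perception and transcription, all tested, edgeR called 3 between the triple mutant and sapx tapx, against 7.91% of all genes. TPL, a co-repressor, was higher and both MYC2 and MYC5 were lower in the triple mutant. MYC5 was also lower in the triple mutant than in wild type (-1.81), a call lost in 8 of the 12 fits that left out 1 library. It was the only 1 of the 11 called there, against 10.3% of all genes. Only MYC2 was called between sapx tapx and pgr5, and none of the 11 between pgr5 and wild type or between the triple mutant and pgr5. In the same order 6.4%, 3.9% and 1.54% of all genes were called. Of 14 genes of jasmonate synthesis, only AOS, which makes the allene oxide precursor, was called between sapx tapx and pgr5. It was higher in sapx tapx (1.91, edgeR adjusted p 0.0278). A count of 1 in 14 is near the 6.4% of all genes called there. None of the 14 was called between pgr5 and wild type, against 3.9% of all genes. The AOS call was lost without sapx tapx replicate 1 or 3 or any 1 of the pgr5 libraries, with adjusted p up to 0.116. ACX1, an acyl-CoA oxidase of the peroxisomal steps, was called as higher in the triple mutant against each of sapx tapx (0.82), pgr5 (0.59) and wild type (0.62). It was the only 1 of the 14 called in each, against 7.91%, 1.54% and 10.3% of all genes in that order. Of the fits that each left out 1 of the 12 libraries, 4 lost the TPL call, 7 the MYC5 call and 7 the ACX1 call against pgr5, with adjusted p up to 0.0863, 0.145 and 0.166 for these genes in that order. The ACX1 calls against sapx tapx and against wild type held in all of these fits.

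Among 11 output genes, 7 of them tested, CLH1, a chlorophyllase gene induced by jasmonate, was lower in pgr5 than in wild type (-1.84, adjusted p 0.0257) and higher in sapx tapx than in pgr5 (1.91, adjusted p 0.0165). No other output gene was called in either comparison, against 3.9% and 6.4% of all genes. The first CLH1 call was lost without any 1 of the pgr5 libraries and the second also without sapx tapx replicate 1 (adjusted p up to 0.106). In the average pgr5 effect, CLH1 and MYC5 were called as lower and ACX1 as higher. Those calls held in all 12 fits without 1 library, with edgeR adjusted p up to 0.0329, 0.0295 and 0.0192. TPL was also called as higher and JAM2 as lower, calls lost in 7 and 9 of the 12 fits (edgeR adjusted p up to 0.0683 and 0.110). Of the 11 perception and transcription genes 3 were called as lower and 1 as higher there, against 14.9% of all genes called. CORI3, a jasmonate-induced transaminase-like gene, was called as higher in the triple mutant than in pgr5 (1.36) and wild type (0.98), calls lost in 9 and 10 of the 12 fits without 1 library. It was the only output gene called in each, against 1.54% and 10.3% of all genes. Of 10 genes of hormone catabolism, 6 tested, none was called in any of the 8 comparisons, and the same was true of 6 other TIFY genes, 5 tested. JAZ13, chosen for mention after its values were seen, followed the JAZ pattern with 14, 3 and 20 reads in the triple mutant, 58, 7 and 29 in sapx tapx, 3, 2 and 1 in pgr5, and 5, 50 and 2 in wild type.

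The gene most like the mean JAZ pattern over the 12 libraries was OPR3, the reductase of jasmonate synthesis in the peroxisome. Likeness was the mean absolute difference between a gene's centred log2 CPM and the mean centred log2 CPM of the JAZ genes, and OPR3 differed by 0.140, less than any JAZ gene did (0.224 for JAZ6 to 1.54 for JAZ7, with the JAZ genes part of that mean); the median over all genes tested was 1.08. OPR3 had 117, 27.0 and 65.3 TPM in the triple mutant, 140.4, 30.3 and 96.1 TPM in sapx tapx, 28.4, 25.9 and 20.6 TPM in pgr5, and 26.1, 211 and 26.2 TPM in wild type. The next were AT1G61890 (0.214), AT5G56980 (0.214), SAG20 (0.241) and AT2G25460 (0.259). All points share the same 12 libraries.

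Intron reads were looked at apart from the exon levels. JAZ1, whose listed exon covers the whole gene, can give none and was left out. Of the reads assigned to the other 9 JAZ genes, introns held 2.89, 3.35 and 3.99% in the triple mutant, 6.5, 10.2 and 9.47% in sapx tapx, 4.78, 3.54 and 4.85% in pgr5, and 4.53, 6.01 and 5.28% in wild type. Every sapx tapx library lay above every library of the other genotypes, by a narrow margin for replicate 1, and every triple mutant library lay below every wild type library. The share did not follow the JAZ level in every genotype. Sapx tapx replicate 2 had the lowest JAZ levels of its genotype and the highest intron share. Triple mutant replicate 1 had the highest JAZ levels of its genotype and the lowest share. In wild type, replicate 2 had both the highest JAZ levels and the highest share. Whole libraries had 1.09 to 1.57% intron reads, with 1.16, 1.38 and 1.49% in sapx tapx and 1.16, 1.54 and 1.40% in wild type.

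Within the family, JAZ9 had an intron share of 2.54 ± 0.686% in the triple mutant, 6.78 ± 1.46% in sapx tapx, 3.46 ± 0.504% in pgr5 and 3.83 ± 0.396% in wild type (SD, n = 3 each). JAZ6 had 5.30 ± 1.68% in the triple mutant, 12.4 ± 4.85% in sapx tapx, 7.49 ± 3.26% in pgr5 and 8.87 ± 1.13% in wild type, and its sapx tapx libraries overlapped with those of pgr5 and of wild type. JAZ9 did not overlap between sapx tapx and any other genotype, while JAZ2, JAZ3, JAZ5 and JAZ12 overlapped between sapx tapx and wild type. In sapx tapx replicate 3 JAZ9 gave 3409 of the 6961 reads of the 9 genes, so it weighs heavily in their sum. How many of all genes separate the genotypes by intron share was not counted. The shares were taken as a description, with no test. In number, the intron reads of the 9 genes were 155, 101 and 188 in the triple mutant and 547, 268 and 659 in sapx tapx. They were 113, 81 and 92 in pgr5, and 99, 563 and 119 in wild type. Whether they came from unspliced RNA or from genomic DNA was not tested.

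**Figure D5:**
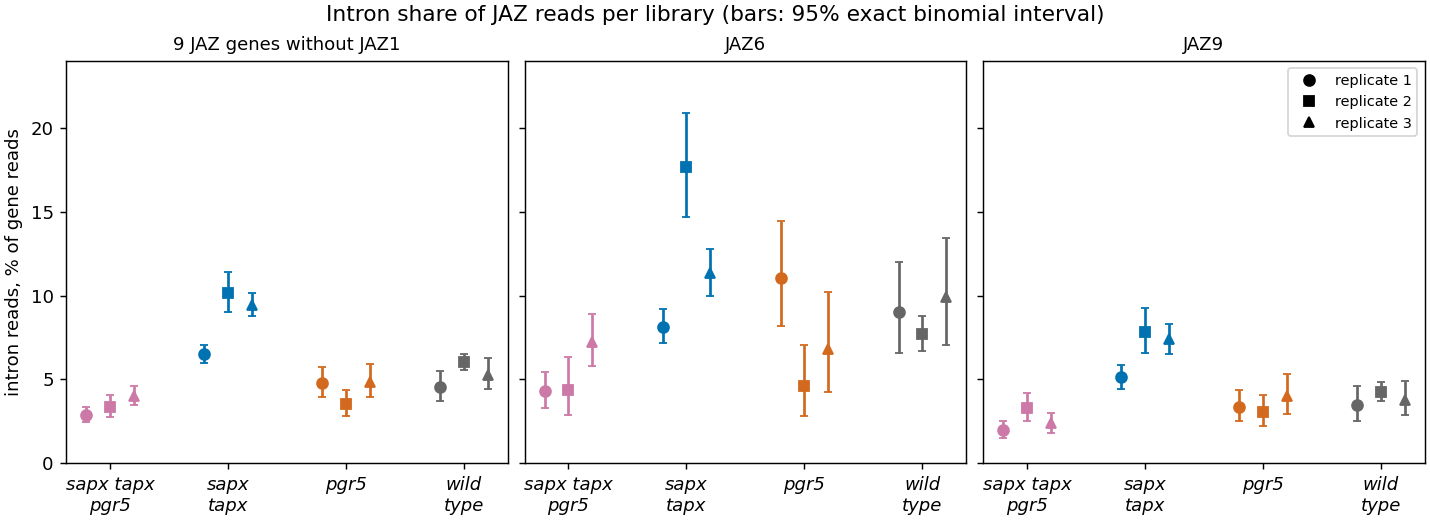
Intron reads as a percentage of gene reads for 9 JAZ genes together (without JAZ1), for JAZ6 and for JAZ9, in each library; bars are 95% exact binomial intervals, which cover counting error only. The 3 sapx tapx libraries lie at 6.5 to 10.2% for the 9 genes and the 3 triple mutant libraries at 2.89 to 3.99%.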

How the data were processed

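Leaf RNA of 4 genotypes was sequenced with 3 libraries each, per the labels after preparation with a TruSeq RNA kit (v2); such libraries keep no strand. Per the file headers, the authors deposited 1 table per library holding whole-number read counts for each gene (exon, unique, intron and all gene reads) beside RPKM and TPM. Per the submitters' processing notes the build was TAIR10; the aligner and counter were not given in the sources used here. The deposited TPM values served as levels, the deposited total exon read counts as the basis of tests, and RPKM was not used. Unique and total exon reads were equal for all 10 JAZ genes in every library.

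Counts of the 16350 genes that passed filterByExpr were fitted with edgeR 4.0.16 in R 4.3.3 (TMM, quasi-likelihood, all 12 libraries, 1 coefficient per genotype, 8 contrasts, Benjamini-Hochberg adjusted p under 0.05 over all genes). All 10 JAZ genes passed the filter. The script was tested on simulated data. Alternatives were DESeq2 1.42.0, DESeq2 size factors in edgeR, no filter, only the compared genotypes, a replicate block, unique reads, limma 3.58.1 on log2(TPM + 1), CPM in place of TPM for levels, and leaving out each library. Intervals of shares are exact Clopper-Pearson at 95%, and intervals and floors (3 reads) cover counting error only. No 2 libraries of a genotype agreed within sampling noise (chi-square per degree of freedom 3.93 to 13.3). Replicates are separate samples in the labels, and p-values measure the spread between them, which may be technical.

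Deviations from the genotype means correlated over 0.1 in all 3 same-numbered pairs of the triple mutant with sapx tapx (0.37 to 0.61). The same held for pgr5 with wild type (0.19 to 0.44) and for no other comparison (7 of 18 pairs in all). Some unlike-numbered libraries correlated as well, such as wild type replicate 2 with triple mutant replicate 1 (0.52), so these values do not show that the numbers pair samples. The numbers were used as a block from the data and not from the labels. A block with only the compared genotypes was added for both comparisons after the data were seen. Promoter windows were read from the RefSeq genome of the same assembly, on which all 28009 genes matched by locus code overlapped the deposited coordinates. The window of JAZ1 is not reported here. The members, gene lists and tests were chosen with earlier results of these data known. Named from each list and comparison were up to 3 called genes of smallest p, and the 5 non-members most like the mean JAZ pattern. JAM2 was named in addition, for a call that did not hold.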

Additional observations from a re-analysis of the deposited data

Results flagged for a closer look

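Intron reads, a column that no test used, made up 10.2% of the reads of the 9 JAZ genes other than JAZ1 in sapx tapx replicate 2 and 9.47% in sapx tapx replicate 3, with exact 95% intervals of 9.04 to 11.4% and 8.79 to 10.2%. Both intervals lay above every wild type library, the highest of which had 6.01% (interval 5.54 to 6.52%). These intervals cover counting error within 1 library and not the spread between replicates. Sapx tapx replicate 1, at 6.5%, did not stand apart in this way. The cause was not tested.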

How the results depend on the processing

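With all 12 libraries edgeR called no JAZ gene in any of the 8 comparisons, and DESeq2, DESeq2 size factors, no filter, unique reads and limma gave 0 as well. The replicate block with all 12 libraries gave 0 members called in every comparison. With only the compared genotypes the block called 5 between the triple mutant and sapx tapx, where it called 3008 of all genes against 1293 in the 12-library fit, and 0 between pgr5 and wild type (JAZ10 adjusted p 0.05001). Fitting only the compared genotypes called 5 between sapx tapx and pgr5. Leaving out 1 library at a time gave 0 to 5 members for sapx tapx against pgr5 (5 without wild type replicate 2), 0 to 1 for the average pgr5 effect (1 without wild type replicate 1 or 3) and 0 elsewhere. The order of genotype means was the same in CPM and TPM for 8 of 10 genes, not for JAZ8 and JAZ12.

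Signs of median log2 fold changes turned when 1 library was left out: -2.23 to 0.0255 for pgr5 against wild type, -0.0819 to 2.03 for sapx tapx against wild type, -1.11 to 1.23 for the triple mutant against wild type (0.0104 with limma) and -0.80 to 1.24 for the interaction. Single genes also turned. For pgr5 against wild type the ranges were -2.35 to 0.67 (JAZ1), -2.59 to 0.15 (JAZ5), -5.16 to 2.24 (JAZ7), -3.39 to 0.18 (JAZ8) and -0.22 to 0.0669 (JAZ12). They were -0.46 to 0.15 (JAZ3) and -3.22 to 0.82 (JAZ7) for the average pgr5 effect, and -1.87 to 0.28 (JAZ7) and -0.40 to 0.0132 (JAZ9) for the triple mutant against sapx tapx. The cause was not tested. JAZ8 and JAZ10 are limited by few reads, and JAZ7 and JAZ8 were not tested in the fit of sapx tapx and pgr5 alone.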

Other observations

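CBF2, which encodes a transcription factor of the cold response, was highest in pgr5, the genotype with the lowest JAZ means. It had 24.5, 21.1 and 48.4 TPM in the triple mutant, 46.0, 45.8 and 66.3 TPM in sapx tapx, 81.4, 76.9 and 71.5 TPM in pgr5, and 5.80, 40.2 and 9.72 TPM in wild type. It was called as higher in pgr5 than in wild type (log2 fold change 2.09 ± 0.52, edgeR adjusted p 0.0487), as was CBF3 (1.54 ± 0.36, adjusted p 0.0359). The CBF2 call was lost in 9 and the CBF3 call in 6 of the 12 fits that left out 1 library, with adjusted p up to 0.141 and 0.125. ZAT12, a zinc finger gene of the stress response, had a higher level in the triple mutant than wild type (2.06 ± 0.56, adjusted p 0.0360), a call lost in 8 of the 12 fits. CBF2, CBF3 and ZAT12 belong to the 14 touch and rapid stress genes used above. CBF2 and CBF3 were the only 2 of the 14 called between pgr5 and wild type, against 3.9% of all genes. ZAT12 was the only 1 called between the triple mutant and wild type, against 10.3% of all genes. Between pgr5 and wild type 9 of these 14 had a log2 fold change above 0 and 5 below, with a median of 0.40. Against wild type, all 14 were above 0 in sapx tapx (median 1.39) and 13 in the triple mutant (median 0.55).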
